A study of Mus musculus with 10 samples.

Results

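Ide, which encodes the insulin-degrading enzyme, lies in a row of protein-coding genes on mouse chromosome 19 that runs Tnks2, Fgfbp3, Btaf1, Cpeb3, Marchf5, Ide, Kif11 and Hhex. These 8 genes, of 56748 in the deposited table, were chosen by their place in this row. Ide and some of its neighbours had already been seen to be higher in cultures with Fam20c knocked out in adipocytes (KO). Differences of the 8 genes between the groups are therefore given as a description. Where the fit over all genes called some of them, the count is given for completeness and supports nothing. RNA-seq covered 5 control and 5 Ad-Fam20c-KO cultures of primary differentiated adipocytes. Control mice were Fam20c-flox and KO mice Fam20c-flox/Adipoq-Cre, so both groups carried the floxed allele, backcrossed to C57BL/6J, and the transgene came only with the KO group. Stromal vascular cells of inguinal fat from male mice 6 to 8 weeks old were differentiated for 6 to 8 days with isobutylmethylxanthine, dexamethasone, insulin and rosiglitazone in both groups. The adiponectin promoter is active in adipocytes, so the knockout is aimed at these and not at other cells of the culture. Whether the cultures came from separate animals is not stated, and p-values measure the spread between these cultures.

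IDE is a zinc metalloprotease of the cytosol that cuts insulin, glucagon, amylin and amyloid beta into short peptides. After insulin binds its receptor and is taken into a cell, IDE contributes to its clearance. In human genetics, the stretch that holds HHEX, KIF11 and IDE is a known type 2 diabetes locus. The neighbours act elsewhere: Tnks2 encodes tankyrase 2, which attaches chains of ADP-ribose to proteins; Btaf1 an ATPase that strips TATA-binding protein (TBP) from DNA; Cpeb3 an RNA-binding regulator of translation; and Marchf5 a ubiquitin ligase of the mitochondrial outer membrane. Fgfbp3 encodes a secreted carrier of fibroblast growth factors (FGFs), Kif11 the kinesin that pushes spindle poles apart in mitosis, and Hhex a homeobox transcription factor of endoderm, blood and endothelium.

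The 8 genes span 606 kb. On GRCm38, with GENCODE M21, Tnks2 (ENSMUSG00000024811.12) runs from 36834232 to 36893477 on the plus strand and Fgfbp3 (ENSMUSG00000047632.12) from 36917550 to 36919615 on the minus strand. Btaf1 (ENSMUSG00000040565.9) follows from 36926079 to 37012752 on the plus strand and Cpeb3 (ENSMUSG00000039652.17) from 37021291 to 37208601 on the minus strand. Marchf5 (ENSMUSG00000023307.15) runs from 37207543 to 37222151 on the plus strand and Ide (ENSMUSG00000056999.17) from 37268743 to 37337852 on the minus strand. Kif11 (ENSMUSG00000012443.5) lies from 37376403 to 37421859 and Hhex (ENSMUSG00000024986.13) from 37434810 to 37440731, both on the plus strand. Fgfbp3 and Btaf1 point away from each other with 6464 bp between them. Cpeb3 and Marchf5 are head to head, with RefSeq starts 69 bp apart. Ide is separated from Marchf5 by 46592 bp and from Kif11 by 38551 bp.

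The bases before the start sites of the 3 genes with the largest positive differences, and of Tnks2 as the first gene of the row, are shown so that the start regions can be compared. They are RefSeq sequences on GRCm38.p6, 250 bases up to the start of the transcript on its own strand, less 16 bases of an annotated exon for Fgfbp3. Capitals mark the matches, on either strand, to 7 motifs. The TATA box was searched as TATAAA, the GC box as GGGCGG and the cyclic AMP response element as TGACGTCA, while the ETS core was searched as CCGGAAG and the E-box as CACGTG. The CCAAT box was searched by the letters of its name, and the element bound by PPAR and RXR as a pair of AGGTCA copies with any base between them. No motif contains another.
Ide, chr19:37334545-37334794, minus strand: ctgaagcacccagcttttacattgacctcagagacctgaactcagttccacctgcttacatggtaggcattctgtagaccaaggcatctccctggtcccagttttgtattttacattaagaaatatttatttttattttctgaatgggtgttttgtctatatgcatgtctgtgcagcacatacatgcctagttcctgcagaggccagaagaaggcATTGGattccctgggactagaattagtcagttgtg
Btaf1, chr19:36925829-36926078, plus strand: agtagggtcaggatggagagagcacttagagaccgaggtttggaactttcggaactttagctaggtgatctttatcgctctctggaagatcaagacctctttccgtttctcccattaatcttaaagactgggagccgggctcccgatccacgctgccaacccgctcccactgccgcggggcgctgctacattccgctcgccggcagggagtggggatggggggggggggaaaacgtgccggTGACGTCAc
Fgfbp3, chr19:36919616-36919849, minus strand: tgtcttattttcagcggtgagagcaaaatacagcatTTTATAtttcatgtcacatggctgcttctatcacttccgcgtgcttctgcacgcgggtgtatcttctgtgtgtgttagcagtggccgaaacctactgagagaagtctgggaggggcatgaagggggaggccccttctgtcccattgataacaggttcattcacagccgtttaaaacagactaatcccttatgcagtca
Tnks2, chr19:36833982-36834231, plus strand: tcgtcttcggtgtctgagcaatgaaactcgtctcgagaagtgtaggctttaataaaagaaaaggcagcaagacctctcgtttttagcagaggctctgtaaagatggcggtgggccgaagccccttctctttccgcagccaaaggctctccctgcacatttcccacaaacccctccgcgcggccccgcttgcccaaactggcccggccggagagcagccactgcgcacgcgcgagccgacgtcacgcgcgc
In the window of Ide, which is 42.8% G and C, the match was a CCAAT box read on the other strand. The coding transcript of Ide in GENCODE M21 is tagged as incomplete at its start and begins 3931 bp inside the RefSeq start. Another GENCODE transcript carries the gene on to 37337852, so the RefSeq start lies 3308 bp inside the annotated gene and the window shown falls there too, outside annotated exons. Windows at that outer GENCODE start and at the start of the coding transcript were not analysed here. Btaf1, at 58.4% G and C, held a full cyclic AMP response element from base 242 of its window. Fgfbp3, at 47.4%, held a TATA box from base 37, read on the other strand and at the window's end far from the start. Tnks2, at 59.6%, held none of the 7 motifs. Of the 32536 mouse windows of this length, 33.81% held a CCAAT box, 12.31% a TATA box, 32.97% a GC box and 1.56% a cyclic AMP response element, while the ETS core, the E-box and the PPAR and RXR element were in 6.95%, 6.04% and 0.03%. Ide, Btaf1 and Fgfbp3 shared no motif in the bases shown, although a CCAAT box lies in the 16 bases of Fgfbp3 left out. A match is a run of letters and not a binding site.

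Libraries held 18949106 to 26237825 counts. Control 4 and KO 1 stood apart from the others on the leading principal component of log2 CPM, the unit of counts after scaling by library size; this component carried 23.5% of the variance: they scored 21.7 and 24.2 where the other libraries lay between -14.8 and 8.6. Fam20c, the targeted gene, averaged 10.2 ± 1.29 CPM in control against 7.30 ± 0.449 CPM in KO cultures (SD, n = 5 each). It was lower in KO by edgeR's quasi-likelihood test (log2 fold change -0.49, adjusted p = 0.0137). At 0.711-fold, much of its RNA remained in the KO cultures, and which cells held it was not tested. Adipocyte markers were abundant in every library. The 8 listed, among them Adipoq and Plin1, summed to 30280 to 31220 CPM in control and 32050 to 34090 CPM in KO, without overlap. Most of this sum was Fabp4, at 20360 to 21360 CPM in control and 21300 to 23550 CPM in KO. Of the 8 log2 fold changes 7 were positive and 1 negative, and 0 of the markers passed by edgeR and 2 by DESeq2, where 3.39% of all genes passed by DESeq2. The 12 endothelial markers listed summed to 181.1 to 217.3 CPM in control and 81.54 to 114.3 CPM in KO, with none at 0 in any library, and 10 of the 12 were lower in KO after adjustment. In such bulk cultures, fewer cells of a type and less RNA per cell cannot be told apart. The part of this endothelial difference in the values of the genes below was not tested beyond the fit with a covariate given after them.

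In control libraries, numbered 1 to 5 in this order here and below, the level of Ide was 140.6, 141.3, 124.4, 133.9 and 132.6 CPM. In KO libraries 1 to 5 it was 169.9, 197.5, 186.3, 206.1 and 197.3 CPM. All KO libraries lay above all control libraries, with KO 1 the lowest of its group and control 3 the lowest of all. The means were 134.6 ± 6.87 CPM in control and 191.4 ± 13.9 CPM in KO (SD, n = 5 each), which is 1.42-fold and a log2 fold change of 0.51 (standard error 0.055). With any 1 library left out it stayed between 0.48 and 0.55, and without both control 4 and KO 1 it was 0.55. The pseudogene Rpl10-ps6 lies inside Ide on the same strand, shares no exon base with it and had 1 to 8 counts.

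Btaf1 had 70.22, 67.94, 54.22, 77.03 and 61.63 CPM in the control libraries and 82.79, 99.63, 80.87, 87.18 and 88.61 CPM in the KO libraries. The groups did not overlap, with KO 3 only slightly above control 4. The means were 66.2 ± 8.67 and 87.8 ± 7.32 CPM (SD, n = 5 each), 1.33-fold, with a log2 fold change of 0.41 (standard error 0.086) and of 0.49 without control 4 and KO 1.

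Fgfbp3 was a scarce transcript, with 1.416, 1.162, 1.082, 1.644 and 1.268 CPM in control and 2.381, 1.976, 2.095, 1.741 and 1.781 CPM in KO libraries, from 23 to 48 counts each. All KO libraries again lay above all controls, by a narrow margin between control 4 and KO 4. The log2 fold change was 0.61 (standard error 0.16), 0.63 without control 4 and KO 1.

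Marchf5, the most abundant of the row, had 291.3, 285.6, 283.2, 298.7 and 290.6 CPM in control and 311.7, 320.3, 304.2, 318.4 and 323.2 CPM in KO libraries. Its groups did not overlap either, but the difference was small, from 289.9 ± 5.98 to 315.6 ± 7.67 CPM (SD, n = 5 each), or 1.09-fold, with a log2 fold change of 0.12 (standard error 0.034).

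The other 4 genes of the row overlapped between the groups. Tnks2 had 139.9, 137.5, 124.8, 156.0 and 137.0 CPM in control and 155.2, 152.2, 133.6, 143.2 and 144.2 CPM in KO libraries, a log2 fold change of 0.07 (standard error 0.059). Cpeb3 ranged from 20.74 to 26.84 CPM in control, with a median of 24.07, and from 21.73 to 27.57 CPM in KO, with a median of 24.23. Its log2 fold change of 0.04 (standard error 0.084) became 0.00 without control 3, its lowest control library. Both genes thus differed between the groups by less than the SD within a group.

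Kif11 had 1.573, 1.612, 1.270, 2.031 and 1.691 CPM in control and 1.736, 1.098, 0.8292, 1.145 and 1.527 CPM in KO libraries, from 19 to 43 counts. Hhex had 1.363, 1.162, 1.458, 1.306 and 1.606 CPM in control and 1.141, 1.054, 1.353, 1.237 and 0.9161 CPM in KO libraries, from 18 to 38 counts. The log2 fold changes of -0.38 (standard error 0.21) for Kif11 and -0.27 (standard error 0.16) for Hhex were the only negative ones of the row. In both genes control and KO libraries were interleaved.

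**Figure D1:**
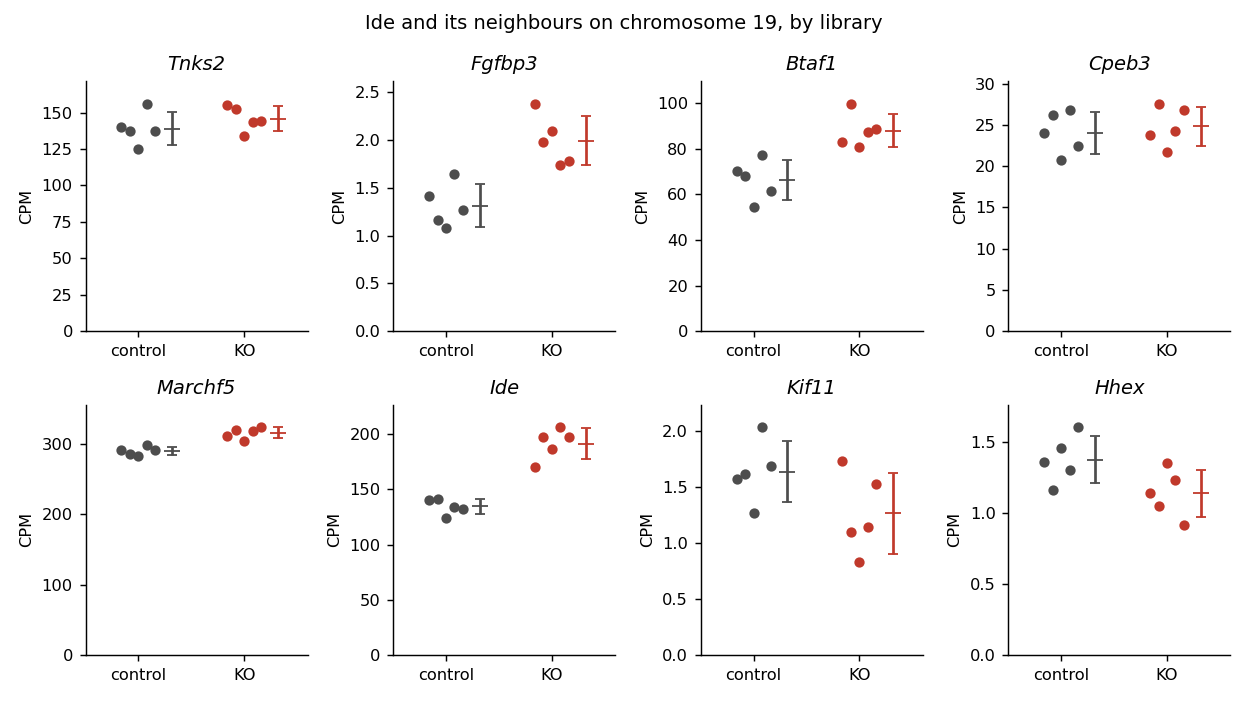
CPM (vertical axes, each from 0) of the 8 genes in row order in 5 control (grey) and 5 KO (red) libraries, one point a library, with the group mean and SD beside the points. The groups are apart in Fgfbp3, Btaf1, Marchf5 and Ide, with Ide at 124.4 to 141.3 CPM in control and 169.9 to 206.1 CPM in KO, and overlap in the other 4 genes.

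In all, 2 of the 8 genes, Ide and Btaf1, passed an adjusted p-value limit of 0.05 as higher in KO, where 0.308% of the 14270 genes tested did, and 0 passed as lower. Every KO library lay above every control library in 4 of the 8, against 1.31% of all genes tested, and below every control library in 0, against 2.66%. Since the row was picked for this contrast, nothing is read from these shares. Btaf1 did not pass without control 2, control 5, KO 2, KO 4 or KO 5, with log2 fold changes of 0.42, 0.38, 0.37, 0.41 and 0.41 in those fits, and Fgfbp3 passed only without control 4, at 0.70. The median log2 fold change was 0.10 over the 8 genes and -0.0008 over all genes tested.

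Ratios of raw counts within a library need no scaling between libraries. There were 0.439 to 0.495 counts of Ide for each count of Marchf5 in control libraries and 0.545 to 0.647 in KO libraries. Against Tnks2, the ratio of Ide was 0.858 to 1.03 in control and 1.1 to 1.44 in KO. Neither ratio overlapped between the groups, so the difference of Ide was larger than that of either gene. Btaf1 over Cpeb3, its neighbour on the right, likewise went from 2.6 to 2.92 in control to 3.31 to 3.72 in KO, and Btaf1 over Tnks2 from 0.434 to 0.502 to 0.534 to 0.654. Marchf5 over Tnks2 overlapped, at 1.91 to 2.27 in control and 2.01 to 2.28 in KO. Fgfbp3 over Btaf1, from 0.0171 to 0.0213 in control and from 0.0198 to 0.0288 in KO, overlapped too. By these values the difference of Ide exceeded those of Marchf5 and Tnks2, and that of Btaf1 exceeded those of Cpeb3 and Tnks2. Btaf1 was not set apart from Fgfbp3. The ratios use the same counts by which the row was picked, so they describe the row and nothing further is read from them.

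**Figure D2:**
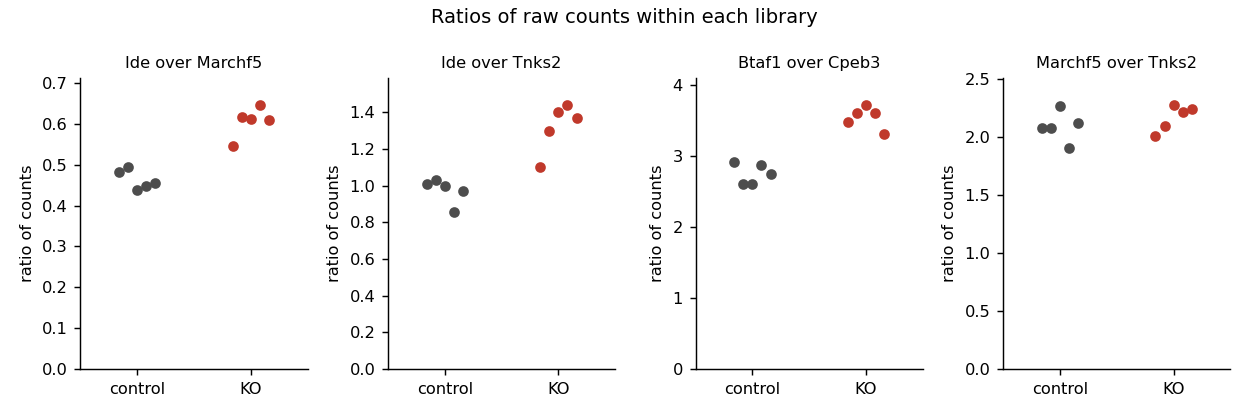
Ratio of raw counts of one gene to another (vertical axes, from 0) within each of 5 control (grey) and 5 KO (red) libraries. The KO libraries lie above the controls for Ide over Marchf5 (0.545 to 0.647 against 0.439 to 0.495), Ide over Tnks2 and Btaf1 over Cpeb3, and overlap them for Marchf5 over Tnks2.

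Levels of different genes were compared per kb of merged exons. In control libraries Marchf5 stood at 120.4 ± 2.49 CPM per kb, above Ide at 17.9 ± 0.916, Tnks2 at 13.4 ± 1.07, Btaf1 at 6.45 ± 0.845, Cpeb3 at 3.24 ± 0.343 and Fgfbp3 at 0.742 ± 0.126 CPM per kb (SD, n = 5). Hhex at 0.273 ± 0.0329 and Kif11 at 0.219 ± 0.0366 CPM per kb (SD, n = 5) came last, and they were the only neighbours in this order whose control libraries overlapped. The same order held in KO libraries, where Ide reached 25.5 ± 1.85 CPM per kb (SD, n = 5). Of 14098 tested genes with an annotated length, 97.2% lay below Marchf5, 82.1% below Ide and 77.0% below Tnks2, but 18% below Fgfbp3, 7.12% below Hhex and 5.20% below Kif11. Marchf5, Ide and Tnks2 were thus among the better expressed genes and Fgfbp3, Hhex and Kif11 among the scarce ones.

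A fit with the mean log2 CPM of the endothelial markers as a covariate changed most of these values. The log2 fold change of Ide became -0.13 (standard error 0.14), that of Btaf1 0.00 (standard error 0.35) and that of Fgfbp3 1.44 (standard error 0.60). Tnks2 was at 0.18 (standard error 0.24), Cpeb3 at -0.36 (standard error 0.34), Marchf5 at 0.05 (standard error 0.14), Kif11 at 0.30 (standard error 0.85) and Hhex at 0.21 (standard error 0.68). The covariate ran from 3.43 to 3.69 in control and from 2.37 to 2.80 in KO libraries, so covariate and genotype are nearly the same variable in these 10 libraries and the standard errors were 2.44 to 4.29 times as large. The standard error of Ide grew least, 2.44 times. Endothelial sums of control libraries 1 to 5 were 181.1, 191.6, 217.3, 212.7 and 216.2 CPM. Those of KO libraries 1 to 5 were 114.3, 91.9, 97.33, 81.54 and 89.02 CPM. In each group the library with the highest sum, control 3 and KO 1, had the lowest Ide level. A relation of these sums to Ide within the groups was not tested beyond this fit. With these libraries the endothelial difference and the genotype cannot be told apart for Ide.

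**Figure D3:**
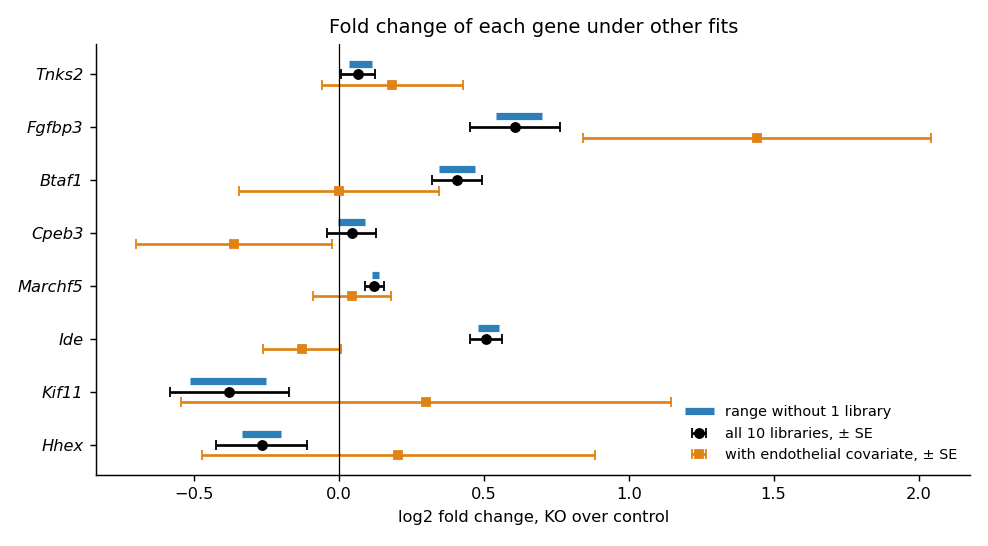
Log2 fold change of KO over control (horizontal axis) of the 8 genes in row order: black circles with standard errors for all 10 libraries, blue bars for the range when 1 library is left out, and orange squares with standard errors for the fit with an endothelial covariate. The blue bar of Ide spans 0.48 to 0.55, while its orange square lies at -0.13, and the orange errors are wider for every gene.

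Genes further along the chromosome were chosen by position alone, although the ends of the row itself were set with results of these data known. Of 69 tested genes that start within 5 Mb of Ide, outside the row, 0 passed the adjusted limit by edgeR's quasi-likelihood test, where 2.17% of all genes did in either direction. An unadjusted p-value under 0.05 was reached by 6 of them, against 11.9% of all genes, and 1 passed by DESeq2, against 3.39% of all genes. The 6 were Aldh18a1, Atad1, Pank1 and Slc35g1, with log2 fold changes of 0.21, 0.12, 0.22 and 0.18, and Pdlim1 and Acta2, at -0.22 and -0.41. The KO libraries lay wholly above the controls in 0 of the 69 and wholly below in 0, where 1.31% and 2.66% of all genes tested did. Of the log2 fold changes 43 were positive and 26 negative, with a median of 0.04. Within 2 Mb the counts were 0 of 17 by edgeR, 0 by DESeq2 and 1 unadjusted, and within 10 Mb 0 of 166, 1 and 15. Within 10 Mb the KO libraries lay wholly below the controls in 2 genes and wholly above in 0.

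The calls among these flanking genes changed without control 4 or KO 1. Without KO 1, Aldh18a1, which makes a precursor of proline, passed at 0.26 (adjusted p = 0.00443, edgeR's quasi-likelihood test) and Pank1, a coenzyme A synthesis enzyme, at 0.30 (adjusted p = 0.0413). Without control 4, Ffar4, a receptor for long-chain fatty acids, passed at 0.91 (adjusted p = 0.0488, same test). Without both libraries 4 genes passed: Aldh18a1 at 0.26, Pank1 at 0.27, Ffar4 at 0.64 and Ppp1r3c, which targets a phosphatase to glycogen, at 0.32. These 4 genes were named after their values were seen. The shares of all genes that passed in these fits are not given here, so the counts are not read as a trait of the region.

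The genes that flank the row show the pattern up close. Before Tnks2, Ankrd1, Pcgf5, Hectd2, Hectd2os and Ppp1r3c had log2 fold changes of 0.11, 0.21, -0.03, 0.19 and 0.27. Beyond Hhex, Exoc6, Myof, Cep55, Ffar4 and Rbp4 were at 0.11, -0.13, 0.07, 0.45 and 0.07. Control and KO libraries overlapped in all 10, and none passed with all libraries. Ffar4 had 24.7, 27.07, 25.72, 78.67 and 32.72 CPM in control and 86.91, 48.96, 40.11, 34.49 and 47.79 CPM in KO libraries, so its highest values were those of KO 1 and control 4. Exoc6, the tested gene nearest to Hhex and a part of the exocyst, ran from 14.25 to 15.76 CPM in control and from 15.16 to 17.31 CPM in KO.

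**Figure D4:**
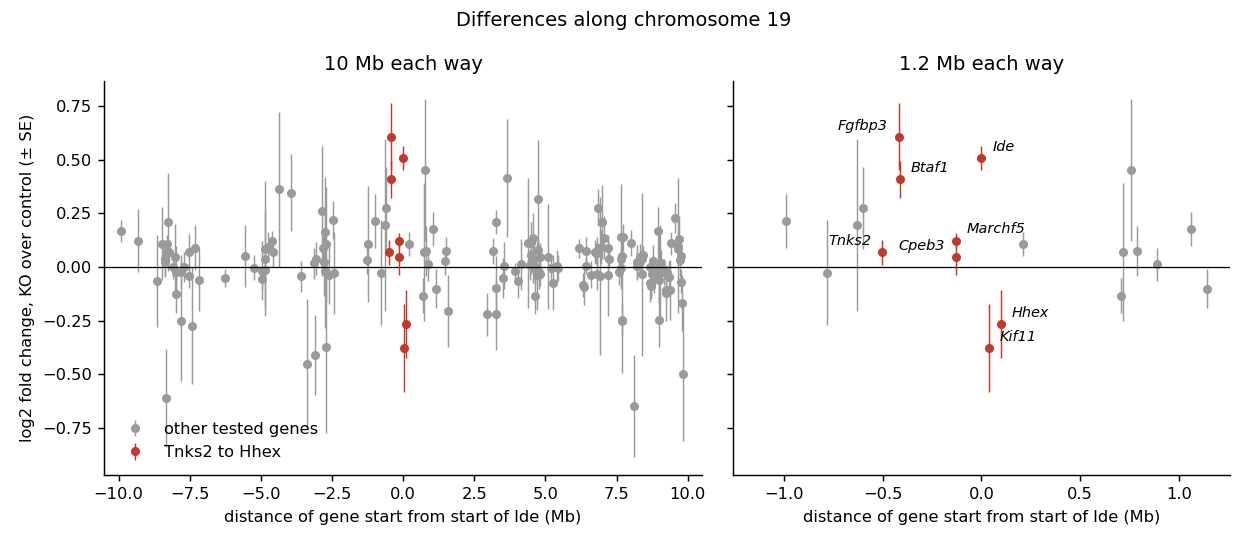
Log2 fold change of KO over control with its standard error (vertical axis) for tested genes by the distance of their start from the start of Ide in Mb (horizontal axis), over 10 Mb each way on the left and 1.2 Mb on the right, with the 8 genes of the row in red. Fgfbp3 sits at 0.61, Ide at 0.51 and Btaf1 at 0.41, while the grey genes within 5 Mb lie between -0.45 and 0.45, the highest being Ffar4 with its wide error.

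Over the whole chromosome, 507 genes were tested, and in 5 every KO library lay above every control library, as in 1.31% of all genes tested. By the adjusted limit 3 genes were higher and 3 lower, where 0.308% and 1.86% of all genes tested were. Of the 3 higher genes, Ide and Btaf1 belong to the row, which was picked for this contrast. The 5 genes with KO wholly above control were the 4 genes of the row and Adra2a, the alpha-2A adrenergic receptor, 16.7 Mb away. Adra2a went from 0.600 ± 0.128 to 1.15 ± 0.147 CPM (SD, n = 5 each), on 11 to 30 counts, which is 0.94 on the log2 scale (standard error 0.19; adjusted p = 0.0231, edgeR's quasi-likelihood test). It did not pass without control 1, control 2, KO 2, KO 4 or KO 5, and its log2 fold change ran from 0.82 to 1.02 over the libraries left out, with adjusted p-values of 0.0544 to 0.0645 by edgeR where it did not pass.

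The partners of each gene were followed through 9 lists. None of the 141 genes listed is in the row, and 134 were tested. Of all genes tested, 0.308% passed as higher and 1.86% as lower by edgeR, and 3.39% passed by DESeq2. An unadjusted p-value under 0.05 was reached by 11.9%. Of the 12 tested peptidases that cut insulin, amyloid beta or related peptides, or are built like IDE, 0 passed by edgeR, 3 had an unadjusted p-value under 0.05 and 1 passed by DESeq2, with 7 positive and 5 negative log2 fold changes and a median of 0.03. Uqcrc2, a core subunit of respiratory complex III related in structure to processing peptidases, was at 0.10, and Ece1, endothelin-converting enzyme, at -0.14. Of 17 genes of the insulin receptor pathway 0 passed by edgeR or DESeq2 and 1 had an unadjusted p-value under 0.05. Slc2a4, the insulin-responsive glucose transporter, was at 0.10 (standard error 0.045) and Irs1, the first docking protein of the receptor, at -0.16.

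Log2 fold changes of the partners of Btaf1 ran from -0.07 to 0.23. Of 19 tested genes of TBP and its regulators, 0 passed by edgeR, 3 had an unadjusted p-value under 0.05 and 1 passed by DESeq2, with 15 positive and 4 negative log2 fold changes and a median of 0.02. Tbpl1, a TBP relative, was at 0.23 (adjusted p = 0.0874, edgeR's quasi-likelihood test) and Drap1, a corepressor that holds TBP, at 0.13. Without KO 1, Tbpl1 passed at 0.26.

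Of 15 genes of mitochondrial outer membrane dynamics, the setting of Marchf5, 0 passed by edgeR or DESeq2 and 1 had an unadjusted p-value under 0.05. Fis1, a receptor of the fission machinery, was at -0.11 and Mcl1, an anti-apoptotic protein that MARCHF5 marks for degradation, at 0.09. Of 12 tankyrase partners, 0 passed by either tool and 0 had an unadjusted p-value under 0.05. Rnf146, the ligase that reads ADP-ribose chains, was at -0.07 and Sh3bp2, a tankyrase substrate, at 0.10. Of 16 CPEB proteins and deadenylases, 0 passed by either tool and 1 had an unadjusted p-value under 0.05, with Tob2, an adaptor that recruits deadenylases, at 0.15 and Cnot3, a subunit of the deadenylase complex, at -0.13.

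Among 10 tested FGF ligands, receptors and carriers 1 was lower and 0 were higher, where 1.86% and 0.308% of all genes were. Fgf10, a ligand made by adipose precursors, fell from 121.9 ± 3.31 to 101.8 ± 3.13 CPM (SD, n = 5 each), which is -0.26 on the log2 scale (standard error 0.037; adjusted p = 0.00196, edgeR's quasi-likelihood test). It thus went the other way from Fgfbp3. The list had 6 positive and 4 negative log2 fold changes, with a median of 0.03.

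Of 22 tested genes of the mitotic spindle and cell division, 0 passed by edgeR or DESeq2. An unadjusted p-value under 0.05 was reached by 5, against 11.9% of all genes. Of the log2 fold changes 20 were negative and 2 positive, with a median of -0.27. Kif11 at -0.38 lay within their range of -0.88 to 0.09. Kif23, a kinesin of the dividing cell's midzone, was at -0.88 (adjusted p = 0.188, edgeR's quasi-likelihood test) and Incenp, a scaffold of Aurora B, at -0.20. The list summed to 50.06 to 79.78 CPM in control and 44.99 to 64.24 CPM in KO libraries, which overlapped, and was highest in control 4 and KO 1.

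Among 11 tested endothelial and blood transcription factors, the setting of Hhex, 4 were lower in KO, where 1.86% of all genes were, and 0 higher. Sox7 was at -1.25 (adjusted p = 0.000562), Erg at -1.37 (adjusted p = 0.000576), Sox18 at -0.86 (adjusted p = 0.00104) and Sox17 at -1.35 (adjusted p = 0.0322, all by edgeR's quasi-likelihood test). All 4 are known from endothelium, and they fell alongside the endothelial markers, whose median log2 fold change was -1.23. Sox17 passed only without control 4, KO 1 or KO 3 when libraries were left out, at -1.45, -1.50 and -1.58, and it did not pass without any other library. All 11 were negative, with a median of -0.35, and Hhex at -0.27 lay within their range of -1.37 to -0.05. The others of the list overlapped between the groups. They were Tal1 at -0.93, Fli1 at -0.35, Gata2 at -0.26, Ets1 at -0.25, Lmo2 at -0.19, Runx1 at -0.08 and Lyl1 at -0.05.

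**Figure D5:**
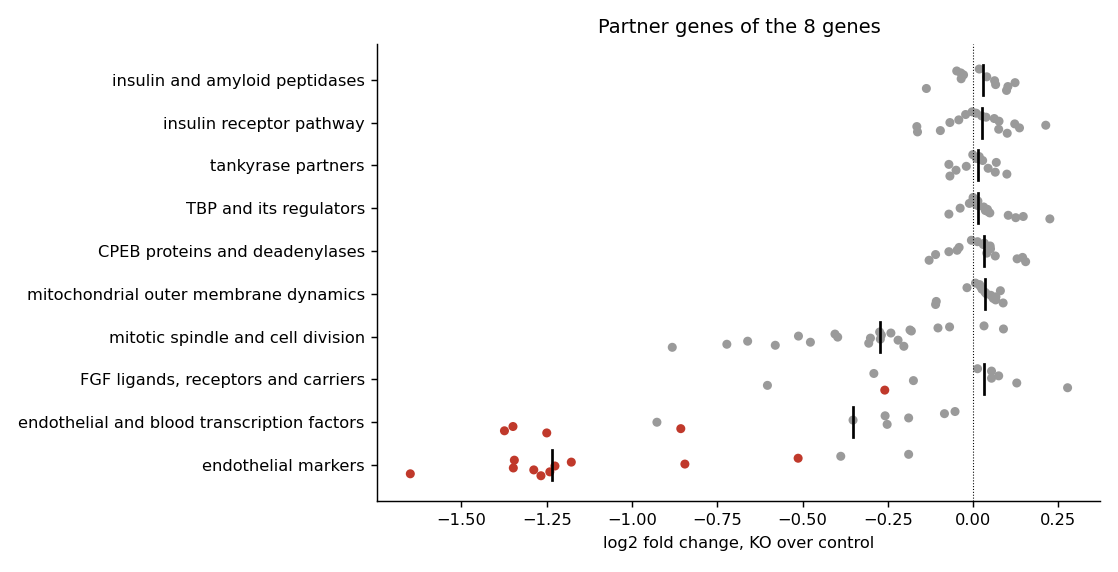
Log2 fold change of KO over control (horizontal axis) of each tested gene in the 9 partner lists and among the endothelial markers, red where the gene passed the adjusted limit and grey otherwise, with the median of each list as a black bar. Medians lie near 0 for the lists tied to Ide, Tnks2, Btaf1, Cpeb3, Marchf5 and Fgfbp3, at -0.27 for cell division, -0.35 for endothelial and blood transcription factors and -1.23 for endothelial markers.

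Markers of other cell types that the cultures could hold were followed as well. The 8 macrophage markers summed to 1260 to 1969 CPM in control and 1116 to 1858 CPM in KO libraries, and the mural cell markers to 156.9 to 207.4 and 127.4 to 173.7 CPM, both overlapping. Of the macrophage markers 3 had positive and 5 negative log2 fold changes, with a median of -0.03. All 6 tested mural cell markers were negative, with a median of -0.10. Of these 2 had an unadjusted p-value under 0.05, against 11.9% of all genes. Adipose progenitor markers summed to 1452 to 1780 and 1439 to 1615 CPM. They had 1 positive and 6 negative log2 fold changes, with a median of -0.31. Cd34, also known from endothelium, at -0.92, and Pdgfra at -0.31 were the 2 of 7 that passed as lower, where 1.86% of all genes did.

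Apart from the difference between the groups, the 5 genes whose levels followed Ide most closely from culture to culture lay on other chromosomes. So do most genes, since 507 of the 14270 tested are on chromosome 19. Over the 10 libraries, with group means removed, the highest Pearson correlations with Ide among 14269 genes were those of Nudt12 (r = 0.99, rho = 0.96), Klf3 (r = 0.97, rho = 0.93), Thrb (r = 0.97, rho = 0.94), Sel1l (r = 0.96, rho = 0.93) and Cse1l (r = 0.96, rho = 0.92). With control 3 and KO 1 left out, the pair farthest from the median of Ide, r was 0.96, 0.92, 0.94, 0.90 and 0.87. These points share libraries and depth, 46 genes exceeded 0.9, and the 5 leading genes by rank correlation included none of these 5. In the row, r with Ide was 0.57 for Btaf1, 0.55 for Cpeb3, 0.47 for Marchf5 and 0.07 for Tnks2, but -0.14 for Kif11, -0.33 for Fgfbp3 and -0.33 for Hhex, all 3 on few counts. Btaf1, the highest in the row, ranked 1383. Without control 3 and KO 1 the values for Btaf1, Cpeb3 and Marchf5 were 0.25, 0.39 and 0.26, and those for Kif11, Fgfbp3 and Hhex 0.15, -0.57 and -0.45. The log2 fold changes of the 5 genes that followed Ide most closely lay between -0.03 and 0.09, so they did not share its difference between the groups.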

How the data were processed

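Counts of reads per gene were analysed for 5 control and 5 KO cultures. Libraries were made with the SMARTer v4 Ultra Low Input and Nextera XT kits. The authors aligned reads to GRCm38.p6 using STAR, obtained gene counts from featureCounts and deposited these counts as raw values. The strand setting is not given in the sources used here. Gene positions came from GENCODE M21, in which 52125 of 56748 identifiers matched, and start sequences from RefSeq, which matched all 8 genes.

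Genes with low counts were removed (filterByExpr, minimum count 10), libraries scaled by TMM and KO compared with control by the quasi-likelihood test of edgeR 4.0.16 in R 4.3.3, unpaired, with Benjamini-Hochberg adjustment over 14270 genes and a limit of 0.05. Standard errors belong to the log2 fold changes. The scripts were tested on simulated data. Libraries of a group differed by more than sampling noise (lowest chi-square per degree of freedom 3.29).

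The 8 genes and all lists were chosen with earlier results of these data known, and the lists by gene function. Named genes were the row, overlapping genes, Fam20c, the 5 nearest tested genes on each side, on each list the genes that passed or else the 2 with the smallest p-values, and the 5 most like Ide. Tal1, Fli1, Gata2, Ets1, Lmo2, Runx1, Lyl1, Adra2a, Cd34, Pdgfra, Adipoq, Plin1 and Fabp4 were named after their values were seen. So were genes named for an unadjusted p-value or for passing without a library. Alternatives were DESeq2 1.42.0, limma voom (limma 3.58.1), other scalings and filters, a replicate block, an endothelial covariate and libraries left out.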

Additional observations from a re-analysis of the deposited data

How the results depend on the processing

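Depth limits Fgfbp3, Kif11 and Hhex, which had at most 48 counts in a library. With all 10 libraries 2 of the 8 genes passed; this was 4 by limma voom with sample quality weights, where Fgfbp3 and Marchf5 were added, 3 by DESeq2, which added Marchf5, and 1 to 3 with single libraries left out. Of the flanking genes 0 passed, against 1 by DESeq2 and 1 by voom (Aldh18a1 in both), 0 to 2 with single libraries left out and 4 without control 4 and KO 1. Of the listed partner genes 5 passed, against 8 by DESeq2 and 4 to 6 with single libraries left out; DESeq2 added Uqcrc2, Tbpl1 and Ets1. Under the endothelial covariate the log2 fold change turned to -0.13 for Ide, -0.001 for Btaf1, -0.36 for Cpeb3, 0.30 for Kif11 and 0.21 for Hhex, and that of Cpeb3 ran from -0.002 without control 3 to 0.091 over the libraries left out; the covariate is nearly collinear with genotype. Ranked by Spearman's rho, 0 of the 5 genes most like Ide stayed. The causes of these changes were not tested. The other scalings, filters on low counts and prior counts that were run left the directions of the 8 genes and the calls among them as they were (the filter of 1 CPM in 5 libraries removed Adra2a), and the 2 Mb and 10 Mb windows also gave 0 flanking calls. For the 8 genes these settings refit the values by which the row was picked, so their agreement adds no support.

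Replicate numbers 1 to 5 occur in both groups, but no source says that they pair cultures. Deviations of same-numbered libraries correlated at -0.17, 0.089, 0.26, -0.25 and 0.034, and 1 of 5 KO libraries matched best the control with its own number. With the replicate number as a block, 2 of the 8 genes, 0 flanking and 5 partner genes passed, and the log2 fold change of Ide was 0.51. Adra2a, at 0.94, no longer passed (edgeR, adjusted p = 0.0995).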
